A study of Mus musculus with 8 samples.

Results

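The locus that holds Mtap, Cdkn2a and Cdkn2b on mouse chromosome 4 was examined in HA ChIP-seq of tagged histone H3. It was taken as the window chr4:88400001-89400000 of the mm9 build, which spans 1000 kb and 91 rows of the deposited signal table, out of 251622 rows on chromosomes 1 to 19 and X. The 3 genes were placed at chr4:88783000-88827000 (Mtap), chr4:88920000-88941000 (Cdkn2a) and chr4:88952000-88958000 (Cdkn2b), intervals that are rounded to the kb. Of the 91 rows, 88 were 10 kb bins and 3 were wider. The window was selected on the HA signal itself, namely on rows near 0 RPM in all 4 libraries and on the deposited peaks, so its levels and the ratios between libraries are given as descriptions and not as tests.

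The cells were C3H10T1/2, an immortal line of mesenchymal progenitors derived from C3H mouse embryos, at passages 10 to 15. The 4 lines each carried a stable FLAG-HA-tagged histone: H3.1WT (wild type), H3.1K36M, H3.3WT or H3.3K36M, where K36M puts methionine in place of the lysine that carries H3K36 methylation. The tagged histone came in addition to the cells' own H3 genes, and the labels do not say whether a line was 1 clone or a pool. Each line gave 1 HA ChIP library and 1 library of input DNA. As a measure of depth, reads recovered from the RPM values and summed over all rows lay between 35487141 (H3.1WT) and 46749609 (H3.3WT). Signal is given per 10 kb in RPM, which are reads relative to all reads of the library. The median 10 kb bin had 3.62 RPM for H3.1WT, 3.64 for H3.1K36M, 2.73 for H3.3WT and 2.98 for H3.3K36M, which is 128, 151, 127 and 115 reads. With 1 library per line no difference has a replicate check. The 95% intervals cover counting error only. The input libraries were not analysed here, so the amount of DNA, the ease of aligning reads to a region and the placement of the tagged histone cannot be told apart.

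Cdkn2a and Cdkn2b encode brakes on the cell cycle. Cdkn2a has alternative first exons: transcripts from the downstream start encode p16INK4a, which inhibits CDK4 and CDK6 and so keeps the RB protein active, and transcripts from the upstream start encode p19ARF, which restrains MDM2 and so stabilises p53. Cdkn2b encodes p15INK4b, another inhibitor of CDK4 and CDK6. Mtap encodes methylthioadenosine phosphorylase, an enzyme of methionine salvage. Loss of the Cdkn2a and Cdkn2b segment is frequent in tumours and in immortal rodent cell lines, and Mtap is often lost along with it. In the RefSeq annotation of another build, GRCm38.p6, the order of genes is Ifne, Mir31, Wincr1, Gm12602, Mtap, Tgif2-ps1, Cdkn2a, Gm12610, Cdkn2b and Dmrta1, with further lncRNA, snoRNA and pseudogene entries among them.

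The reference sequence just before each gene start is shown because 3 of these 4 starts fall in rows with almost no reads and the fourth, that of Mtap, in a row rich in H3.3. Each is the 250 bases before the start in RefSeq (GRCm38.p6), 5′ to 3′ on the strand of the gene, + for Mtap and - for the others. Capitals mark the dinucleotide CG, which reads the same on both strands. All 3 genes were found in the table of promoters, Cdkn2a with both of its starts.
Mtap: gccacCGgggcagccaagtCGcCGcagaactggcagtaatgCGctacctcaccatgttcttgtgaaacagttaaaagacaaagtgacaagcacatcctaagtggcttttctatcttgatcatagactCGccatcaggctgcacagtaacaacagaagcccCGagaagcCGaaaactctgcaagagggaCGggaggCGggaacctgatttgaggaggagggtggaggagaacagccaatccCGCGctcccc
Cdkn2a upstream start: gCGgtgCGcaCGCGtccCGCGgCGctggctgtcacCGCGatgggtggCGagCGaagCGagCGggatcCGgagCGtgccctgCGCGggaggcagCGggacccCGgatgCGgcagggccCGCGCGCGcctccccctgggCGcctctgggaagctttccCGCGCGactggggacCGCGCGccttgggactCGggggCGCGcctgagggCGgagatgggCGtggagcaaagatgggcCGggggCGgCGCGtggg
Cdkn2a downstream start: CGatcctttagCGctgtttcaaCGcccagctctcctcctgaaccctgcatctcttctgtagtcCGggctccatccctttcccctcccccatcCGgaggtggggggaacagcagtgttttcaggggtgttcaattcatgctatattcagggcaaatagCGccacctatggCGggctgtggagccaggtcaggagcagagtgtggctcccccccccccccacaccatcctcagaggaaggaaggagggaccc
Cdkn2b: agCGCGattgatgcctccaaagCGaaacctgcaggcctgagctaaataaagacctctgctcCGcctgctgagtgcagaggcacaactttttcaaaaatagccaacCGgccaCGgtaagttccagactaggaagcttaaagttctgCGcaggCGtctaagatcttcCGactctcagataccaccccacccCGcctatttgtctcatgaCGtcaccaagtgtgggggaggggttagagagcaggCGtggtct
The upstream start of Cdkn2a had 40 CG in its 250 bases, a number reached by 1.31% of the 32851 promoters in the table, whose median was 6. The other windows were closer to the median: 12 CG before Cdkn2b (reached by 33.5% of promoters), 11 before Mtap (35.6%) and 7 before the downstream start of Cdkn2a (46.3%).

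Almost no HA reads were found over Cdkn2b in any of the 4 lines. The gene lay inside 1 row of 80 kb, chr4:88930001-89010000, which held 16 reads in H3.1WT, 2 in H3.1K36M, 1 in H3.3WT and 3 in H3.3K36M. At the library medians 80 kb would hold 1024, 1208, 1016 and 920 reads. The row was thus at 1.56% of the median in H3.1WT (95% interval 0.893 to 2.54%), 0.166% in H3.1K36M (0.0201 to 0.598%), 0.0984% in H3.3WT (0.00249 to 0.548%) and 0.326% in H3.3K36M (0.0672 to 0.953%). All 4 libraries were low here, and H3.1WT was the least low.

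Cdkn2a was also low in all 4 libraries. It spans the row chr4:88910001-88930000 and the 80 kb row that also holds Cdkn2b, 100 kb together. These rows held 30 reads in H3.1WT, 13 in H3.1K36M, 14 in H3.3WT and 24 in H3.3K36M. Of these, the 20 kb row alone held 14, 11, 13 and 21 in the same order. It stood at 5.47%, 3.64%, 5.12% and 9.13% of the medians, fuller than the 80 kb row that makes up most of the length. Over both rows the levels were 0.0849, 0.0313, 0.0301 and 0.0622 RPM per 10 kb. That is 2.34% of the median in H3.1WT (interval 1.58 to 3.35%), 0.861% in H3.1K36M (0.458 to 1.47%), 1.10% in H3.3WT (0.603 to 1.85%) and 2.09% in H3.3K36M (1.34 to 3.11%). Because the rows of both Cdkn2 genes held few reads in all 4 libraries, a ratio between lines there compares a few residual reads and not HA signal over the genes.

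The rows around these genes formed 1 stretch of 120 kb, chr4:88910001-89030000, in which every row was at or below 10% of the median in all 4 libraries. Reads in it numbered 45 in H3.1WT, 15 in H3.1K36M, 17 in H3.3WT and 26 in H3.3K36M, where the medians would give 1536, 1812, 1524 and 1380. It began 10 kb before the Cdkn2a interval and ended 72 kb past the Cdkn2b interval, and Mtap ended 83 kb before it. Of the stretch, 2 rows were 10 kb bins and the rest lay in the rows of 20 and 80 kb. Its extent depends on the level: at 5% of the median only the row of 80 kb met the rule. The rule of 10% in all 4 libraries was met by 4 of the 88 bins of 10 kb in the window (0.53% of all 10 kb bins), or by 14 of 100 units of 10 kb once wider rows were included (3.68% of all units). With rows of 0 reads in all 4 libraries left out, an alternative that was not planned, the share of all units was 0.770%. The row just inside this limit, chr4:88910001-88930000, reached 9.13% of the median in H3.3K36M, and the bin just outside it, chr4:89030001-89040000, stood at 9.38% in H3.1WT, 9.27% in H3.1K36M, 11.8% in H3.3WT and 33.9% in H3.3K36M. The remaining 20 kb, chr4:88430001-88450000, lay near the start of the window.

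**Figure D1:**
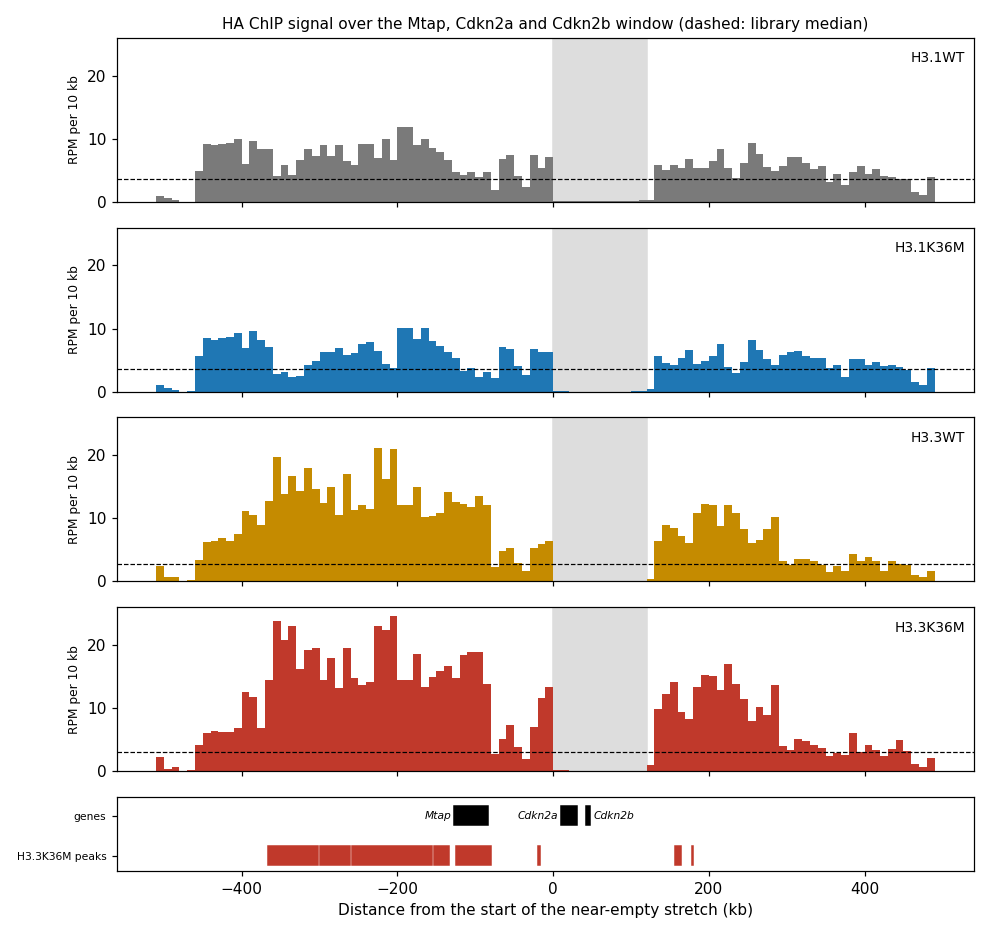
HA signal (RPM per 10 kb, 1 panel per library) against distance in kb from the start of the near-empty stretch, which is shaded; the dashed line is the library median, red blocks are the deposited H3.3K36M peaks and black blocks the genes. All 4 libraries drop close to 0 across Cdkn2a and Cdkn2b, while H3.3 over Mtap stands at 12.5 RPM (WT) and 16.9 RPM (K36M).

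The large drops in signal at the edges of the stretch fell between the same rows in all 4 lines, although the 10% limit itself was crossed at the distal end 1 bin later in the H3.1 libraries than in the H3.3 libraries. The rule asks for all 4 libraries and so sets 1 shared pair of edges in advance. On the Mtap side the last filled bin, chr4:88900001-88910000, had 249 reads in H3.1WT, 260 in H3.1K36M, 299 in H3.3WT and 513 in H3.3K36M, and the next row, chr4:88910001-88930000, had 14, 11, 13 and 21. The row inside is 20 kb wide and its neighbour 10 kb, so shares of raw reads understate the drop. Raw reads inside were 5.62% of the neighbour's in H3.1WT, 4.23% in H3.1K36M, 4.35% in H3.3WT and 4.09% in H3.3K36M. The intervals of these raw shares overlapped (from 2.09% at the lowest bound to 9.61% at the highest). Per 10 kb the row inside held 0.198, 0.133, 0.140 and 0.272 RPM, against 7.05, 6.27, 6.43 and 13.3 RPM in the neighbour. On the other side, chr4:89030001-89040000 held 12, 14, 15 and 39 reads and its outer neighbour 207, 237, 300 and 384. That bin was at 5.80%, 5.91% and 5.00% of its neighbour in H3.1WT, H3.1K36M and H3.3WT and at 10.2% in H3.3K36M (interval 7.11 to 14.1%). The outer neighbours on either side were above the library median in all 4 libraries.

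**Figure D2:**
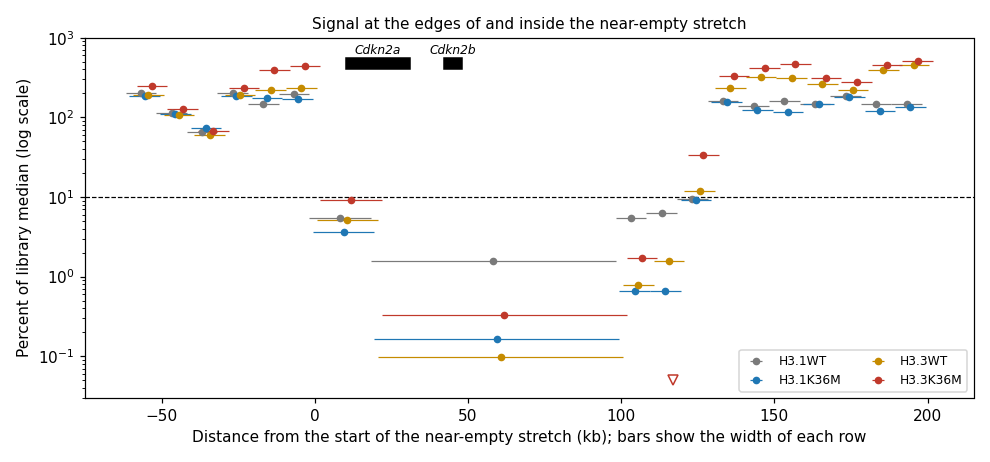
Signal of each row as a percent of the library median (log scale) against distance in kb from the start of the near-empty stretch; horizontal bars give row widths, points are shifted slightly sideways to separate the libraries, the open triangle is a row with 0 reads and the dashed line marks 10%. Signal falls steeply between the same neighbouring rows in all 4 libraries, and in the inner 3 rows of the stretch H3.1WT lies above the others.

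Within the stretch the reads that remained were not spread alike over the libraries. In the inner 100 kb, chr4:88930001-89030000, H3.1WT had 31 reads, against 4 in H3.1K36M, 4 in H3.3WT and 5 in H3.3K36M. On the RPM scale H3.1WT was 9.10-fold above H3.1K36M (interval 3.22 to 35.5), 10.2-fold above H3.3WT (3.61 to 39.8) and 6.77-fold above H3.3K36M (2.61 to 22.3). It was the highest in each of the 3 rows of this inner part, at 16, 7 and 8 reads, and stood at 2.42% of its own median. The inner 100 kb was chosen after its values were seen. Over the full 120 kb, H3.1WT was 3.52-fold above H3.1K36M.

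Near-empty runs as long as this one were found elsewhere in the table. Of 592 runs under the same rule, 122 had 0 reads in all 4 libraries, and of the 470 with reads 43 were longer than 120 kb. The 5 longest unbroken runs of 10 kb bins were chrX:32480001-32620000 (140 kb), chr4:121760001-121880000, chrX:24520001-24640000 and chrX:144470001-144590000 (120 kb each) and chr7:8040001-8150000 (110 kb). In these 5, H3.1WT stood between 1.63% and 3.29% of its median and H3.1K36M between 1.77% and 3.85%, and H3.1WT had more reads than H3.1K36M in 1 of the 5 (40 and 37). Among all runs, wider rows included, 231 others had at least 10 reads in H3.1WT. Their fold of H3.1WT over H3.1K36M had a median of 1.01 and ranged from 0.503 to 3.91. Runs entered by their reads in H3.1WT, the numerator of this fold, so the filter leans toward higher folds. The stretch, at 3.52, ranked 2, which is a description and not a test. The longest unbroken run of 10 kb bins at the Cdkn2 genes was 20 kb, because most of the stretch lies in wider rows. With wider rows included, as for the 120 kb of the stretch, the longest runs with reads were 730, 570, 550, 540 and 530 kb. The run of 530 kb, chr7:7950001-8480000, holds the run of 110 kb on chromosome 7 given above.

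Mtap, in contrast with its neighbours, was filled in all 4 libraries and rich in H3.3. The 5 bins that touch it, chr4:88780001-88830000, had a mean of 4.43 RPM for H3.1WT (interval 4.13 to 4.75), 3.59 for H3.1K36M (3.33 to 3.85), 12.5 for H3.3WT (12.02 to 12.9) and 16.9 for H3.3K36M (16.4 to 17.5). These levels were 1.22, 0.985, 4.57 and 5.69 times the library medians. Single bins ranged from 3.88 to 4.70 RPM for H3.1WT, from 2.39 to 5.40 for H3.1K36M, from 11.9 to 13.5 for H3.3WT and from 13.8 to 18.9 for H3.3K36M, so every bin of either H3.3 library lay above every bin of either H3.1 library.

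**Figure D3:**
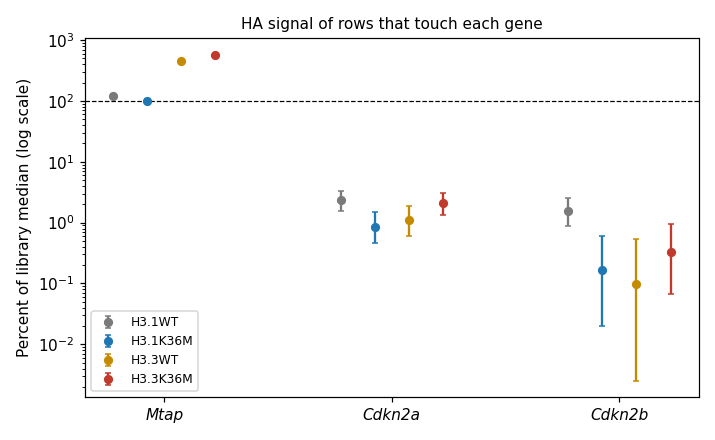
HA signal of the rows that touch each gene as a percent of the library median (log scale), with points for the 4 libraries and bars for the 95% counting interval; the dashed line is the median. Mtap lies between 98.5% and 569% of the median, and Cdkn2a and Cdkn2b lie between 0.0984% and 2.34%. The rows of Cdkn2a include the 80 kb row that holds Cdkn2b.

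H3.3 exceeded H3.1 over Mtap by 2.81-fold in the WT lines (interval 2.60 to 3.05) and by 4.72-fold in the K36M lines (4.36 to 5.12). Over all 10 kb bins the medians of these log2 ratios were -0.43 and -0.30, so with ratios scaled to those medians the folds were 3.80 and 5.83. These comparisons and the next share libraries. Between K36M and WT, H3.3 was 1.36-fold higher over Mtap in H3.3K36M (1.29 to 1.43), in 5 of 5 bins, or 1.27-fold relative to the median of all bins, whose log2 ratio was 0.10. H3.1 moved the other way, 1.24-fold lower in H3.1K36M (1.12 to 1.37), in 4 of 5 bins.

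The authors' deposited list of H3.3K36M peaks placed 8 peaks in the window, which covered 281.8 kb or 28.2% of it, against 1.28% of the length of all 10 kb bins for the whole list of 8375 peaks. None of the 73 deposited H3.1K36M peaks lay in the window. The list also placed no peak in the near-empty stretch. One peak, chr4:88785401-88830600 (45.2 kb, the 35th longest of the list), matched Mtap: it began 2.4 kb after the rounded gene start, covered 94.5% of the interval and ended 3.6 kb beyond it. Between it and the previous peak was a gap of 9 kb, which held the gene start.

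Before Mtap 4 long peaks followed one another almost without a break, chr4:88543801-88608400 (64.6 kb), chr4:88611001-88649400 (38.4 kb), chr4:88652201-88754200 (102 kb) and chr4:88756401-88776400 (20 kb). They ranked 10th, 53rd, 1st and 177th in length. The rows they touch, chr4:88540001-88780000, had 14.3 RPM of H3.3WT and 17.6 of H3.3K36M, which is 5.23 and 5.92 times the medians. H3.1WT stood at 7.90 and H3.1K36M at 6.18 RPM in these rows, which is 2.18 and 1.70 times the medians. H3.3 was thus high in the WT line over the same rows in which the peaks were called in H3.3K36M. Between Mtap and the stretch was 1 short peak, chr4:88890401-88893600 (3.2 kb), which ended 16.4 kb before the stretch. Past the stretch, peaks of 7 kb and 1.4 kb lay at chr4:89066801-89073800 and chr4:89088401-89089800.

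H3.1 was raised across much of the window. At least 2 times the median was reached in 24 of 88 bins in H3.1WT (27.3%, against 1.91% of all bins) and in 14 in H3.1K36M (15.9%, against 1.58%). In H3.3WT 53 bins reached it (60.2%, against 23.5%) and in H3.3K36M 56 (63.6%, against 15.5%). In 6 bins at chr4:88450001-88510000, which no peak touched, the H3.1 lines stood at 8.56 (WT) and 8.15 RPM (K36M) and the H3.3 lines at 6.16 (WT) and 5.98 RPM (K36M). As multiples of the medians these were 2.36, 2.24, 2.26 and 2.01, a smaller spread than over Mtap. Just before them, chr4:88400001-88450000 held between 9.84% (H3.1WT) and 30.2% (H3.3WT) of the medians. These segments were chosen after the values were seen. What sets the levels was not tested.

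Past the stretch the window had a part rich in H3.3 followed by a part near the H3.3 medians, a division made after the values were seen. The 16 bins of chr4:89040001-89200000 stood at 6.06 RPM for H3.1WT, 5.28 for H3.1K36M, 8.99 for H3.3WT and 12.1 for H3.3K36M, or 1.67, 1.45, 3.29 and 4.06 times the medians. The 20 bins of chr4:89200001-89400000 stood at 4.43, 4.32, 2.64 and 3.38 RPM, or 1.22, 1.19, 0.966 and 1.13 times the medians. H3.3WT was below H3.1WT in 20 of the 20 bins of the second part and above it in 13 of the 16 bins of the first. Among all bins with a mean of at least 0.5 RPM, H3.3WT was above H3.1WT in 35.7%, so being below was common.

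H3.3K36M exceeded H3.3WT over most of the window, by amounts that were modest beside the 2-fold rule. Of 84 bins with a mean of at least 0.5 RPM, 73 had the higher signal in H3.3K36M (86.9%, against 58.4% of all bins), and the median log2 ratio was 0.32, which is 0.22 above that of all bins. The peaks were called in H3.3K36M, so bins in peaks, those of Mtap among them, lean toward a higher ratio by selection. H3.3K36M was 1.23-fold higher (1.21 to 1.26) over the 510 kb before the stretch and 1.33-fold higher (1.29 to 1.37) over the 370 kb after it. The 2-fold rule, taken on RPM plus 0.1 and with no test, was passed upward by 2 bins (2.38%, against 2.94% of all bins) and downward by 0 (against 1.81%). Both bins lay at the edges of the stretch. One was the last filled bin, chr4:88900001-88910000, with 7.05 RPM for H3.1WT, 6.27 for H3.1K36M, 6.43 for H3.3WT and 13.3 for H3.3K36M, a fold of 2.07 (1.79 to 2.39) between the H3.3 lines. The other was the partly filled bin chr4:89030001-89040000, with 0.340, 0.337, 0.323 and 1.01 RPM, a fold of 3.13 (1.69 to 6.12) that rests on 39 and 15 reads. The latter bin reached the mean of 0.5 RPM only through H3.3K36M, so it had to be higher in that library, and it supports no difference; without it 1 bin remained, as with the filter at the median bin. The bin with the short peak, chr4:88890001-88900000, was next, with H3.3 at 5.96 RPM (WT) and 11.6 RPM (K36M), 1.94-fold (1.67 to 2.27).

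**Figure D4:**
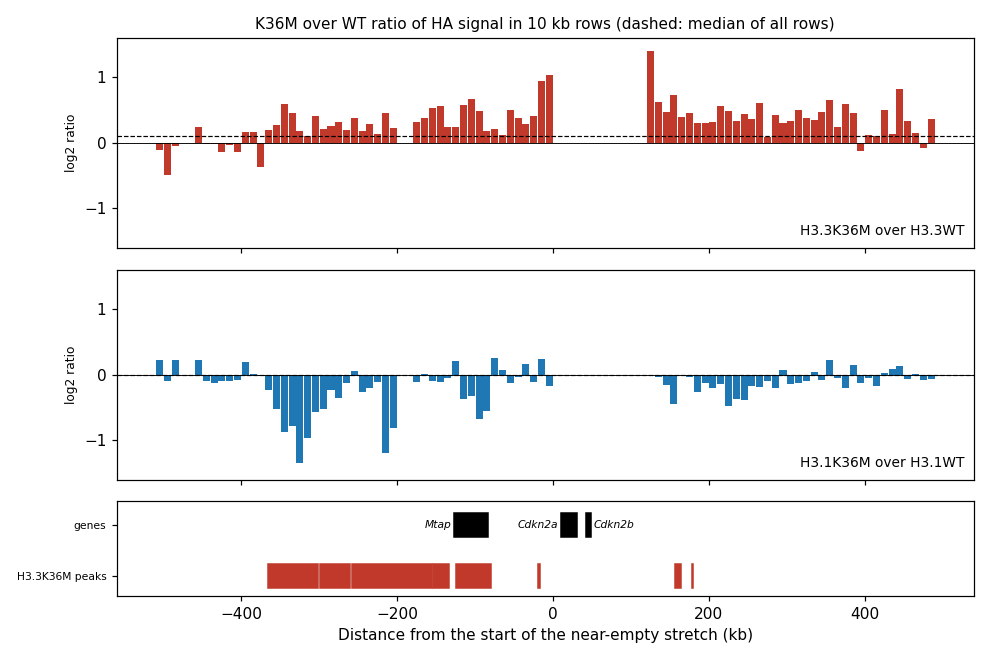
Log2 ratio of K36M over WT in 10 kb bins with a mean of at least 0.5 RPM (bars), for H3.3 above and H3.1 below, against distance in kb from the start of the near-empty stretch; dashed lines are the medians of all bins and blocks mark peaks and genes. H3.3 ratios are above 0 in 73 of 84 bins, and the lowest H3.1 ratios lie in the peaks before Mtap.

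H3.1K36M was lower than H3.1WT in the peaks before Mtap. Over the 64.6 kb peak H3.1 stood at 6.37 RPM (WT) and 3.85 RPM (K36M), 1.65-fold lower (1.53 to 1.79), while H3.3 stood at 15.7 RPM (WT) and 19.6 RPM (K36M). Over the next peaks the H3.1 fold shrank to 1.25 (1.15 to 1.36), 1.20 (1.14 to 1.26) and 1.07 (0.969 to 1.17) lower. In 2 of the 84 bins H3.1K36M was at least 2-fold lower (2.38%, against 0.064% of all bins) and in 0 at least 2-fold higher (against 0.0122%). These were chr4:88580001-88590000, with 6.57 and 2.51 RPM in the WT and K36M line, 2.62-fold lower (2.07 to 3.33), and chr4:88690001-88700000 inside the 102 kb peak, with 9.99 and 4.31 RPM, 2.32-fold lower (1.93 to 2.79). Between Mtap and the stretch H3.1 was level, at 5.29 and 5.27 RPM, a fold of 0.996 (0.929 to 1.07).

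Within the window, bins with more H3.3 in the WT line had lower ratios of H3.1K36M over H3.1WT. Across the 84 bins Pearson's r between that log2 ratio and the log2 H3.3WT signal was -0.53 (Spearman's rho -0.63), against -0.06 and -0.04 over all 245206 bins. The measures share no library, but neighbouring bins are not independent. K36M over WT ratios of H3.1 and H3.3 had little relation to each other, with r of -0.06 (rho -0.14) in the window.

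The excess of H3.3 over H3.1 at the 2-fold rule was more frequent in the window than over all bins. In the WT lines H3.3 passed the 2-fold rule upward in 23 of 84 bins (27.4%, against 10.3%) and downward in 5 (5.95%, against 16.8%). In the K36M lines it did so upward in 34 (40.5%, against 8.18%) and downward in 0 (against 3.29%). The 23 include chr4:88420001-88430000, at 0.25, 0.31, 0.75 and 0.73 RPM, which reached the mean of 0.5 RPM only through the H3.3 libraries. The 34 include chr4:89030001-89040000, which reached it only through H3.3K36M. Those bins had to be higher in H3.3, and they support no difference. With ratios scaled to the median of all bins, 31 bins of the WT lines were higher and 0 lower, and with a pseudocount of 1 RPM 1 was lower, so the count of lower bins depends on these choices. All 5 bins of Mtap were among the higher ones in either state. The 5 bins that were lower as deposited lay past the stretch, in chr4:89200001-89400000.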

How the data were processed

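Groups came from the genotype and description labels. Both H3.3 ChIP titles open with H3.1, and a Cbx2 antibody stands in the protocol; genotype and the described HA antibody were followed. Bowtie 1.0.0 and build mm9 are named per the submitters' processing notes. Peak caller, control and bin counting: not given in the sources used here. RPM values were deposited by the authors per row for the 4 HA libraries, of which 100% above 0 were whole multiples of the smallest one within 0.01 of a read, so reads were recovered; with 1 library per group no count test is possible. Wider rows hold sums: per 10 kb, rows of 20 kb stood at a median of 1.02 times the mean of their neighbours. They were left out of counts of bins and of ratios per bin, and used in levels and folds of regions, since most of the near-empty stretch lies in them. The other deposited files list peak positions, with no score. The ratio, interval and near-empty steps were tested on simulated 10 kb rows with counting error alone. Wider rows and other variation were not covered.

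Gene intervals are rounded mm9 positions supplied with the locus. Members, lists and alternatives were chosen with earlier results of these data known. Named regions are the 3 genes, all peaks in the window, the bins at the edges of the stretch, the 5 longest near-empty runs of 10 kb bins and segments described as chosen after values were seen. The run with wider rows that holds 1 of those 5 is named as well. Genes of the wider pathway were not placed, since the gene table describes GRCm38.p6, and whether a region is exonic or intronic is not given. Ratios per bin are log2 of RPM plus 0.1 over bins with a mean of at least 0.5 RPM, which understates low bins. Intervals are exact Poisson for levels and Clopper-Pearson (95%) for folds, on reads without molecular identifiers. Alternatives covered pseudocount, filter, scaling, near-empty level, wider rows, flank length, edge bins, gene bins and peak overlap. Software was scipy 1.17.1, pandas 2.3.3, numpy 2.4.6 and matplotlib 3.10.9 under Python 3.11.15.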

Additional observations from a re-analysis of the deposited data

Results flagged for a closer look

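Summed over Mtap and over each side of the near-empty stretch, K36M over WT moved in opposite directions in H3.3 and H3.1; with 1 library per line the difference was not tested. Over Mtap the fold was 1.36 in H3.3 and 0.809 in H3.1. Over the 510 kb before the near-empty stretch it was 1.23 and 0.858, and over the 370 kb after it 1.33 and 0.921. Smaller segments, chosen after the values were seen, did not all follow these sums. In H3.3 and H3.1 the folds were 0.971 (0.904 to 1.04) and 0.953 (0.894 to 1.02) at chr4:88450001-88510000. At chr4:88400001-88450000 they were 0.872 (0.696 to 1.09) and 1.18 (0.841 to 1.65). All of these counting intervals include 1, so no direction can be read in either segment. Between Mtap and the stretch they were 1.53 and 0.996, the latter within its counting interval of 1.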

How the results depend on the processing

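No paired analysis was possible because each line has 1 library. Of 111 alternative values for 35 results, 73 stayed within the counting interval or within 1.5 times the count, 37 moved further and 1 reversed. The near-empty bins in the window numbered 4 as 10 kb bins and 1 at a level of 5% of the median. The bin left at 5% was chr4:88430001-88440000, which lies outside the stretch. With wider rows they numbered 14 units. The share of all bins was 3.68% with wider rows, 0.286% at the 5% level and 1.18% at 25%. With wider rows but without rows of 0 reads in all libraries, that share was 0.770%. Mtap stood at 417% of the chromosome 4 median in H3.3WT, and in bins wholly inside the gene at 85.7% of the median in H3.1K36M and 628% in H3.3K36M; no row lies wholly inside Cdkn2a or Cdkn2b. Scaled by the median of bin ratios, the folds of H3.3K36M over H3.3WT were 1.27 (Mtap), 1.15 (before the stretch) and 1.24 (after it), those of H3.3WT over H3.1WT 3.80, 2.09 and 1.43, and those of H3.3K36M over H3.1K36M 5.83, 2.74 and 1.89. As the median of log2 ratios per bin, the folds before the stretch were 1.18 (H3.3K36M over H3.3WT), 0.922 (H3.1K36M over H3.1WT), 1.38 (H3.3WT over H3.1WT) and 2.03 (H3.3K36M over H3.1K36M), and after it 1.13 for H3.3K36M over H3.1K36M. That of H3.3WT over H3.1WT after the stretch was 1.06 from summed reads and reversed to 0.825 as a median; the cause was not tested. With flanks of 100 kb the folds before the stretch were 1.42, 0.937, 1.18 and 1.80 in the same order, and after it 1.37 (H3.3K36M over H3.3WT), 1.49 (H3.3WT over H3.1WT) and 2.27 (H3.3K36M over H3.1K36M). For H3.3K36M over H3.3WT, bins past 2-fold upward numbered 0 with a pseudocount of 1 RPM and 1 each with the filter at the median bin and after scaling. Without a filter, 1 bin was 2-fold higher and 4 were lower in H3.1K36M than in H3.1WT. Bins 2-fold lower in H3.3WT than in H3.1WT numbered 1 with a pseudocount of 1 RPM, 2 with the filter at the median bin and 0 after scaling. Leaving out the bins next to the stretch or the first 50 kb of the window, the latter chosen after seeing the data, moved no fold beyond its counting interval. In the near-empty rows, 1 to 16 reads per library in the row of 80 kb limit ratios between lines to wide intervals.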
